A study of Mus musculus with 6 samples.

Results

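Delta cells are the somatostatin-producing endocrine cells of the pancreatic islet. The transcripts described here are a set of 10 genes used as markers of these cells, Sst, Hhex, Rbp4, Spock3, O3far1 (the older symbol of Ffar4), Ghsr, Casr, Frzb, Ptprz1 and Lepr. They were picked by symbol out of 21813 gene symbols with values, and for each symbol the RefSeq transcript with the highest mean over all 6 libraries was kept. Mean level was thus the one measured value used to pick the rows, while the set itself was proposed with earlier results of these data known. The study compared whole islets of 3 Ucn3 null males with islets of 3 wild-type male littermates, all adults of 3 months, with each animal sequenced as its own library. Neither group carried any other allele or treatment named in the labels. The strain, the kind of null allele and the cells in which Ucn3 is lost are not given in the sources used here. The cell type is labelled as mixed, although the extraction text mentions a sort. Values are RPKM, reads per kilobase of transcript scaled to the reads of the library.

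Somatostatin restrains the secretion of insulin and glucagon by neighbouring beta and alpha cells, and delta cells release it in response to glucose and to signals from those neighbours. One such signal in the mouse islet is urocortin 3, the product of Ucn3, a peptide that beta cells release together with insulin and that acts on delta cells through the receptor Crhr2. The transcription factor Hhex is needed to maintain delta cells in mice. Several of the other genes encode receptors for hormones and nutrients, ghrelin, leptin, long-chain fatty acids and calcium, that reach delta cells from the blood.

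The libraries matched their labels. Ucn3 was at 1.61, 1.63 and 1.80 RPKM in null islets, against 136, 157 and 155 RPKM in wild-type islets (log2 difference -5.81, SE 0.08, limma adjusted p = 6.6e-08). Depth, recovered from the steps between low values, was about 46480000 to 51900000 reads in null libraries and 42580000 to 48490000 reads in wild-type libraries. Sst ranked at number 13 of all gene symbols by mean RPKM, and all 10 genes had reads in every library, from 71 to 213 reads for Lepr up to 24056 to 81099 reads for Sst. Differences are in log2(RPKM + 1), with the wild-type mean subtracted from the null mean. They were tested with limma over all 12652 genes that averaged at least 1 RPKM, and a gene passed when its Benjamini-Hochberg adjusted p was under 0.05. In bulk islet RNA, fewer delta cells and less RNA per delta cell cannot be told apart.

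Of the 10 genes, 9 had a lower mean in null islets than in wild-type islets, and for 7 of them every null library lay below every wild-type library. Casr was the exception in direction, with every null library above every wild-type library, and the groups overlapped for Frzb and Lepr. The largest ratios of wild-type to null means were those of Spock3 (2.60), Sst (2.45), Ptprz1 (2.06) and Hhex (1.95). Of the 7 genes with enough signal to be tested, 0 passed the limma threshold, where 0.0158% of all tested genes did, and limma-voom on estimated reads also called 0. At an unadjusted limma p under 0.05 there were 6 of the 7, 5 of them lower and 1 higher in null islets, against 7.9% of all tested genes lower and 1.46% higher. Null libraries lay entirely below wild-type libraries for 5 of the 7 tested genes, against 13.2% of all tested genes, and entirely above for 1, against 1.9%. A wild-type mean at least 1.5 times the null mean was seen in 4 of the 7, against 1.7% of all tested genes. The median difference was -0.75 over the 7 and -0.03 over all tested genes. Spock3 is in each of these counts of lower genes, and the median over the 7 is its own value. Yet it reached the mean of 1 RPKM needed for testing only through its wild-type libraries. Because the set was proposed with these results known, these counts and the median describe it and do not test it.

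**Figure D1:**
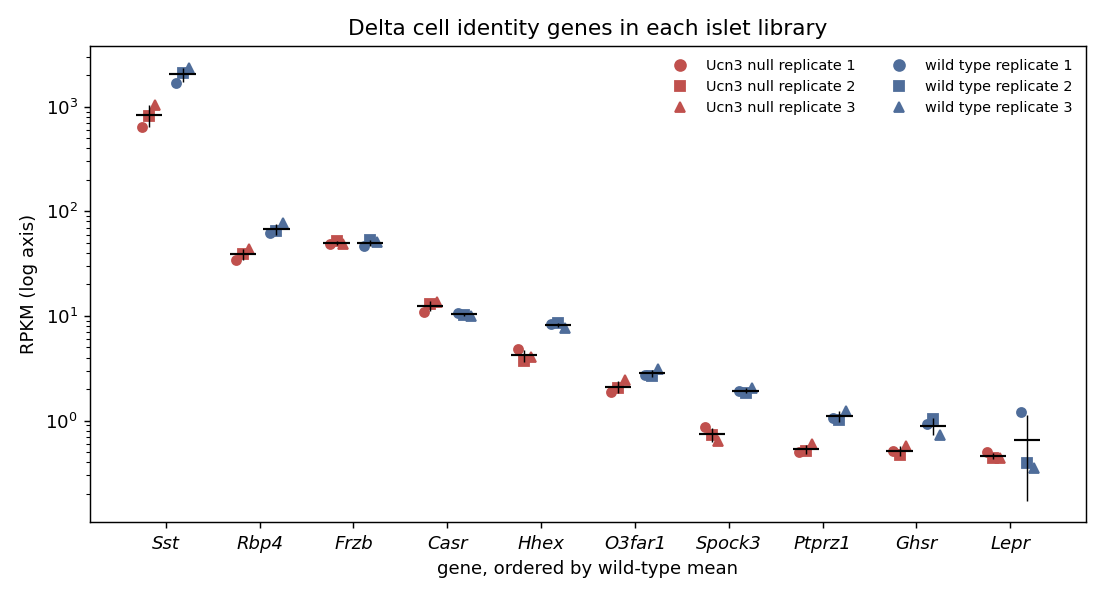
RPKM (log axis) of the 10 delta cell genes in each of the 3 Ucn3 null and 3 wild-type libraries, with horizontal lines at group means and vertical lines of 1 SD. Null points of Sst, Rbp4, Hhex, O3far1, Spock3, Ptprz1 and Ghsr lie below all wild-type points, those of Casr lie above, and wild type replicate 1 stands apart for Lepr at 1.21 RPKM.

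The promoter windows of 3 of the lower-valued genes and of Casr, whose values ran the other way, are shown to let a reader compare the letters around their starts. They run from 250 bases before to 50 bases after an annotated start, and come from RefSeq on build GRCm38.p6, which is not the build the study's notes name (mm9). The windows are Sst at chr16:23890795-23891094, minus strand, Hhex at chr19:37434591-37434890, plus strand, Rbp4 at chr19:38124762-38125061, minus strand, and Casr at chr16:36562085-36562384, minus strand. Capitals mark matches, on either strand, to any of 5 motifs, which were chosen after the sequences had been seen. TGACGTCA is the cyclic AMP response element, and TGACG is its shorter core, which lies inside it. TATAAA is the TATA box and CCAAT the CCAAT box. The homeodomain motif searched was TAATG. Rbp4 has a pair of annotated windows, of which the one with a TATAAA match is printed.
Sst: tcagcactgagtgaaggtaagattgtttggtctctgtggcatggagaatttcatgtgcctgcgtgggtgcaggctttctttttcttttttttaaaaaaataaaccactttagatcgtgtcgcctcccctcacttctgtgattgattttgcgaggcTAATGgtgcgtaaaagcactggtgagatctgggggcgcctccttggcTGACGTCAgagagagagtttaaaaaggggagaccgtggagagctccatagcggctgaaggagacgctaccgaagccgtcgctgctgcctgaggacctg
Hhex: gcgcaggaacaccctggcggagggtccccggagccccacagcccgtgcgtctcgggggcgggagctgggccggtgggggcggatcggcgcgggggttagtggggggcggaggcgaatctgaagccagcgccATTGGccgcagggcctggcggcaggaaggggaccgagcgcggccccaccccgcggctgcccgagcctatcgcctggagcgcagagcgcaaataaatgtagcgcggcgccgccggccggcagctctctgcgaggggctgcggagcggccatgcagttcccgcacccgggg
Rbp4: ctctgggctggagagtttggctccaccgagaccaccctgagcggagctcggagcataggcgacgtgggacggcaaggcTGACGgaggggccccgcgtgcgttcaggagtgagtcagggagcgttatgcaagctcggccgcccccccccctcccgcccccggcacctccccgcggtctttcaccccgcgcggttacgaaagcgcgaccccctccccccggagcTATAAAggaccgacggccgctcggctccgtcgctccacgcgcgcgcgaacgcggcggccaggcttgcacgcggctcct
Casr: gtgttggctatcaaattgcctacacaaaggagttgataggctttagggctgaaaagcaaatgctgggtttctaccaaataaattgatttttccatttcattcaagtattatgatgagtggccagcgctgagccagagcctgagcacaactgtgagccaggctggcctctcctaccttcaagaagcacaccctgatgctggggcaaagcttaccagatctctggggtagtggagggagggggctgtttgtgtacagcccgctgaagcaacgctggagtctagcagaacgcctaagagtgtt

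The Sst window held TGACGTCA at 48 to 41 bases upstream of the start, and was the only window to do so among the 13 that cover the 10 genes. This element is the one through which cyclic AMP is known to act on the somatostatin gene. It was found in 1.79% of all 32851 windows, and TGACG in 20.8%. The Sst window also held TAATG at 95 to 91 bases upstream, a match found in 26.8% of all windows and in the windows of 3 of the 10 genes, the others being Ghsr and Ptprz1. In the printed Rbp4 window TATAAA stood 28 to 23 bases upstream, and TGACG 172 to 168 bases upstream. At any position, TATAAA was found in 13.6% of all windows. The Hhex window held CCAAT, on the other strand, 119 to 115 bases upstream, a motif found at any position in 37.4% of all windows. The Casr window held none of these letters. No motif was shared by all of the lower-valued genes, and the windows of Spock3 and O3far1 held none of the 5. These matches describe sequence only, since no binding or chromatin was measured.

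Somatostatin, the hormone of delta cells, was the most abundant product of the set. Sst had 643, 816 and 1035 RPKM in null islets, against 1676, 2117 and 2320 RPKM in wild-type islets. The groups did not overlap, the highest null library lying below the lowest wild-type library by a ratio of 1.62. Null islets averaged 831 ± 197 RPKM and wild-type islets 2038 ± 329 RPKM (SD, n = 3 each), so that the null mean was 40.8% of the wild-type mean (log2 difference -1.31, SE 0.21, limma adjusted p = 0.34). The SD was 23.7% of the mean in null and 16.1% of the mean in wild-type islets.

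Hhex, the homeobox factor of delta cell identity, had 4.79, 3.75 and 4.07 RPKM in null islets, against 8.36, 8.52 and 7.72 RPKM in wild-type islets. All null libraries lay well below all wild-type libraries, with an SD of 12.6% of the mean in null and 5.17% in wild-type islets. The means were 4.2 ± 0.53 RPKM in null and 8.2 ± 0.42 RPKM in wild-type islets (SD, n = 3 each; log2 difference -0.83, SE 0.09, limma adjusted p = 0.067). Of the 7 tested genes it had the smallest limma p, 2.1e-05 before adjustment. The call turned on 1 animal. Without Ucn3 null replicate 1, whose 4.79 RPKM was the highest null value, Hhex passed as lower (log2 difference -0.91, limma adjusted p = 0.041), while over all 15 alternatives its adjusted p ran from 0.041 to 0.91.

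Of the genes for secreted proteins, Rbp4 and Spock3 were lower in every null than in every wild-type library, and Frzb was not. Rbp4, the carrier of retinol in blood, had 34.6, 38.8 and 43.6 RPKM in null islets, against 61.6, 64.5 and 76.6 RPKM in wild-type islets. The groups were apart, with a null mean at 57.7% of the wild-type mean (39.0 ± 4.48 RPKM in null and 67.6 ± 7.93 RPKM in wild-type islets, SD, n = 3 each; log2 difference -0.78, SE 0.12, limma adjusted p = 0.28). Its second listed transcript gave nearly the same ratio of null to wild-type means, 0.582 against 0.577. Spock3, a testican proteoglycan of the extracellular matrix, had 0.86, 0.734 and 0.633 RPKM in null islets, against 1.90, 1.85 and 2.05 RPKM in wild-type islets. It had the largest relative gap of the 10 genes, with every pairing of a wild-type with a null library at a ratio of 2.15 to 3.24.

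Spock3 is a low transcript, with 90 to 137 reads in null and 248 to 305 reads in wild-type libraries, and it reached the mean of 1 RPKM needed for testing only through its wild-type libraries. Its log2 difference was -0.75 (SE 0.09, limma adjusted p = 0.12), which understates the difference in RPKM because 1 was added to each value. With a pseudocount of 0.1 it was -1.28 (adjusted p = 0.17), and limma-voom on estimated reads gave -1.38 (adjusted p = 0.056), in a range of 0.056 to 0.91 over its alternatives. The groups overlapped for both other testicans. Spock2, the most abundant, averaged 76.0 ± 6.82 RPKM in null and 67.0 ± 6.67 RPKM in wild-type islets, and Spock1 10.8 ± 1.35 RPKM in null and 11.9 ± 1.06 RPKM in wild-type islets (SD, n = 3 each).

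Frzb, a secreted antagonist of Wnt ligands also called Sfrp3, was the member with the least difference. It had 48.6, 51.9 and 48.8 RPKM in null islets, against 46.2, 52.7 and 51.3 RPKM in wild-type islets. The groups overlapped fully, at 49.8 ± 1.87 RPKM in null and 50.1 ± 3.38 RPKM in wild-type islets (SD, n = 3 each; log2 difference -0.01, SE 0.08, limma adjusted p = 0.99). The sign of this small value changed under 7 of 15 alternatives, which ranged from -0.061 to 0.079. Of 10 other secreted Wnt antagonists and their receptors, 2 could be tested. Sfrp5 averaged 12.5 ± 2.04 RPKM in null and 14.4 ± 1.33 RPKM in wild-type islets and Kremen1 4.2 ± 0.31 RPKM in null and 4.01 ± 0.23 RPKM in wild-type islets (SD, n = 3 each), both with overlapping groups. Among the 8 untested genes only Sfrp2 did not overlap, at 0.125 to 0.176 RPKM in null and 0.0931 to 0.103 RPKM in wild-type islets. It was named after its values were seen, and the share of genes with that order at this level was not taken.

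Among the receptors, O3far1, which senses long-chain fatty acids, had 1.88, 2.03 and 2.42 RPKM in null islets, against 2.71, 2.69 and 3.10 RPKM in wild-type islets. The groups were apart by little, with the nearest libraries at a ratio of 1.11. The means were 2.11 ± 0.28 RPKM in null and 2.83 ± 0.23 RPKM in wild-type islets (SD, n = 3 each; log2 difference -0.31, SE 0.09, limma adjusted p = 0.49). The other fatty acid and lipid receptors of the islet overlapped between groups in all 4 cases. The highest of them, Ffar1, the long-chain fatty acid receptor of beta cells, averaged 22.1 ± 4.93 RPKM in null and 18.7 ± 2.47 RPKM in wild-type islets (SD, n = 3 each). The short-chain fatty acid receptors Ffar2 and Ffar3 averaged 6.95 ± 1.68 and 4.37 ± 0.42 RPKM in null and 7.27 ± 1.99 and 4.57 ± 0.67 RPKM in wild-type islets (SD, n = 3 each).

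Casr, the calcium-sensing receptor, had 10.9, 12.9 and 13.6 RPKM in null islets, against 10.7, 10.2 and 10.1 RPKM in wild-type islets. Null libraries lay above wild-type libraries, though the nearest values, 10.9 and 10.7 RPKM, were close. The means were 12.5 ± 1.41 RPKM in null and 10.3 ± 0.32 RPKM in wild-type islets (SD, n = 3 each; log2 difference 0.24, SE 0.09, limma adjusted p = 0.49). Its difference stayed between 0.18 and 0.33 over all 15 alternatives. Sst and Casr lie on the same chromosome, 16, and their differences had opposite signs.

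The remaining receptors averaged under 1 RPKM, so they were left out of the main test, and their differences come from a limma fit without that filter. Ptprz1, a receptor-type tyrosine phosphatase that binds pleiotrophin and midkine, had 0.496, 0.517 and 0.593 RPKM in null islets, against 1.05, 1.01 and 1.24 RPKM in wild-type islets. The groups were apart, with 201 to 222 reads in null and 362 to 485 reads in wild-type libraries (log2 difference -0.45, SE 0.07, limma adjusted p = 0.40 without the filter). Ghsr, the ghrelin receptor, had 0.511, 0.467 and 0.575 RPKM in null islets, against 0.922, 1.04 and 0.723 RPKM in wild-type islets, again without overlap (log2 difference -0.32, SE 0.08, limma adjusted p = 0.55 without the filter). Both fitted differences understate those in RPKM, because 1 was added to each value. The log2 ratio of null to wild-type mean RPKM was -1.04 for Ptprz1 and -0.79 for Ghsr. Among 1431 genes averaging 0.5 to 1 RPKM, null libraries lay entirely below wild-type libraries in 10.8%.

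Lepr, the leptin receptor, rested on 1 library. It had 0.499, 0.443 and 0.437 RPKM in null islets, against 1.21, 0.397 and 0.355 RPKM in wild-type islets. Wild type replicate 1 was the highest of all 6 libraries in each of the 3 listed transcripts, the other wild-type libraries were the lowest, and the groups overlapped. With all libraries the ratio of wild-type to null means was 1.42, and without wild type replicate 1 it was 0.817 (log2 difference with all libraries -0.14, SE 0.18, limma adjusted p = 0.89 without the filter).

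**Figure D2:**
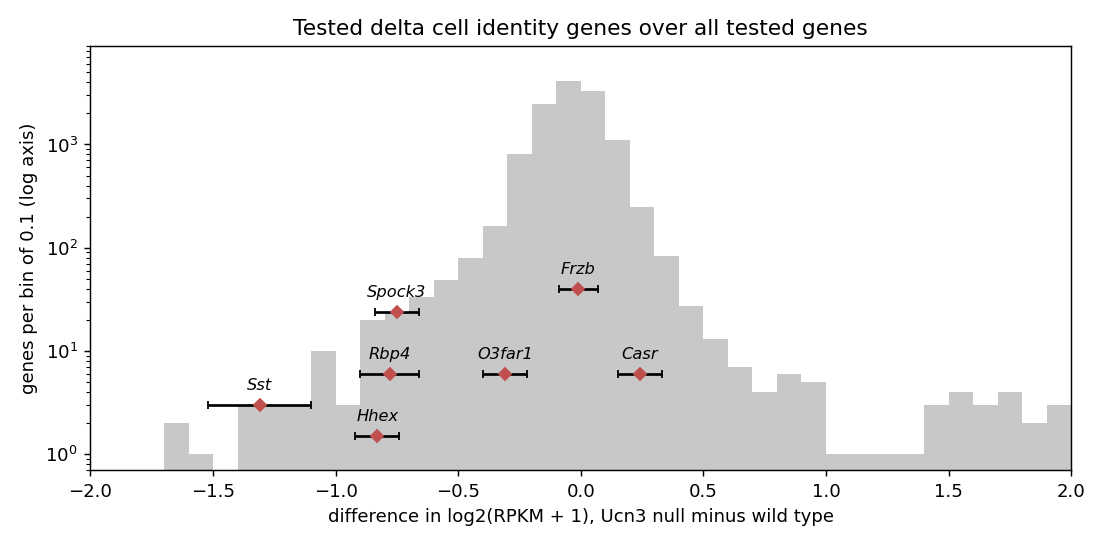
Distribution of the difference in log2(RPKM + 1), Ucn3 null minus wild type, over all tested genes (grey, log axis for genes per bin; 40 genes beyond 2 in size are not drawn), with the 7 tested delta cell genes as diamonds with bars of 1 SE. The height of a diamond has no meaning; Sst, Hhex, Rbp4 and Spock3 lie in the thin left tail, Frzb at the centre and Casr on the right.

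The order of the genes by level was Sst, Rbp4, Frzb, Casr, Hhex, O3far1, Spock3, Ptprz1, Ghsr and Lepr in wild-type islets. Neighbours in this order had separate ranges over the wild-type libraries, except Ptprz1 with Ghsr and Ghsr with Lepr. In null islets Frzb, at 48.6 to 51.9 RPKM, stood above Rbp4, at 34.6 to 43.6 RPKM, which is the reverse of the wild-type order, where Frzb spanned 46.2 to 52.7 RPKM and Rbp4 61.6 to 76.6 RPKM. By group means the other places were the same in both groups.

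To set the genes against the hormone itself, each was divided by Sst within its own library, which removes the scaling of the library. Sst is the divisor and was itself lower in every null library, so a gene with equal levels in both groups takes a log2 difference of 1.31 on this scale, and 0 marks a gene as low relative to wild type as Sst. Every null library lay above every wild-type library for 95.8% of the other tested genes and for 4 of the 6 tested members, so being higher relative to Sst sets no gene apart.

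Casr stood at 16.9, 15.9 and 13.1 per 1000 of Sst in null islets, against 6.39, 4.82 and 4.36 per 1000 in wild-type islets, a log2 difference of 1.57. Frzb was at 1.30, close to the value of a gene with equal levels. O3far1 was at 0.87, Ghsr at 0.53 and Rbp4 at 0.51, each between that value and 0. Without wild type replicate 3 the value of Ghsr was 0.28, and without Ucn3 null replicate 1 it was 0.37.

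Hhex, Ptprz1, Spock3 and Lepr overlapped between groups on this scale. Spock3 stood at 1.34, 0.899 and 0.611 per 1000 of Sst in null islets, against 1.13, 0.873 and 0.883 per 1000 in wild-type islets. Its log2 difference was -0.08, which turned positive without Ucn3 null replicate 3 (0.20) or wild type replicate 1 (0.04). Hhex stood at 7.45, 4.6 and 3.93 per 1000 of Sst in null islets, against 4.99, 4.02 and 3.33 per 1000 in wild-type islets, a log2 difference of 0.34. Without 1 library in turn the Hhex value was lowest without Ucn3 null replicate 1, at 0.07, and highest with replicate 3 of the null group left out, at 0.53. It was 0.19 without wild type replicate 3. Ptprz1 differed by 0.27, and by 0.15 without Ucn3 null replicate 1 or 0.17 without wild type replicate 2. Lepr differed by 1.03, and by 1.73 without wild type replicate 1 and 0.61 without wild type replicate 3.

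**Figure D3:**
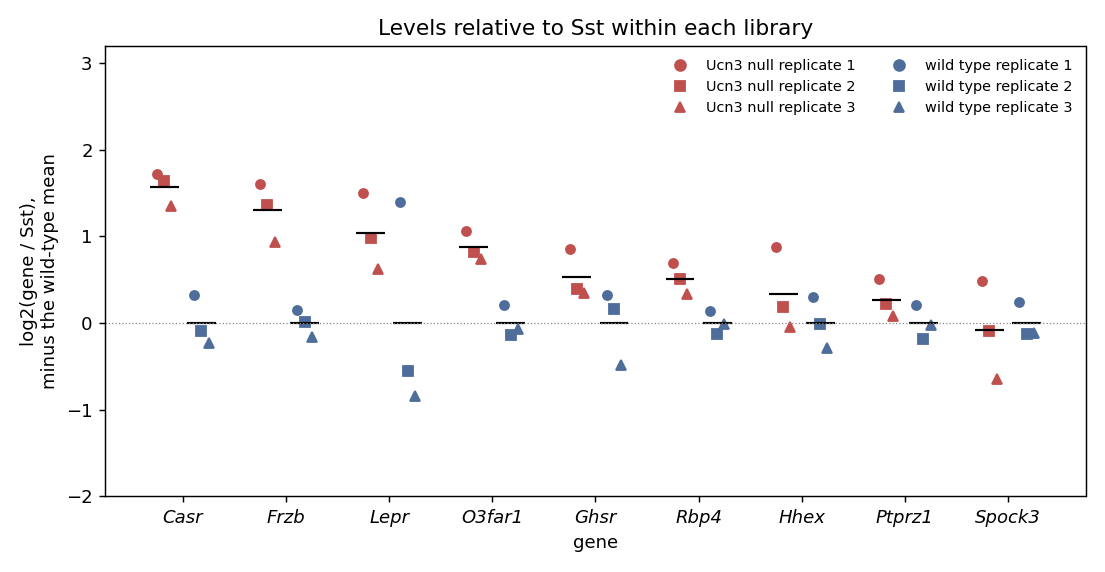
Level of each gene relative to Sst in the same library, as log2 of the ratio of RPKM minus the wild-type mean of that ratio, for the 3 Ucn3 null and 3 wild-type libraries, with lines at group means. Null points lie above all wild-type points for Casr, Frzb, O3far1, Ghsr and Rbp4 and mix with them for Hhex, Ptprz1, Spock3 and Lepr, where a gene with equal levels in both groups would have its null mean at 1.31.

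Of the 10 genes, 3 lie on chromosome 19 in the reference annotation, Hhex, Ffar4 (O3far1 in the table) and Rbp4. Ffar4 and Rbp4 are direct neighbours with no annotated gene between them, on opposite strands and running towards each other. Between Hhex and Rbp4 the annotation places 6 protein-coding genes, Ffar4 among them, and 2 of the others could be tested. Exoc6, a subunit of the exocyst, averaged 5.24 ± 0.67 RPKM in null and 5.65 ± 0.27 RPKM in wild-type islets. Myof, which encodes myoferlin, averaged 0.90 ± 0.32 RPKM in null and 1.5 ± 0.32 RPKM in wild-type islets (SD, n = 3 each). The groups overlapped for both. The log2 difference was -0.1 for Exoc6 (limma adjusted p = 0.79) and -0.4 for Myof (limma adjusted p = 0.49). Myof reached the mean of 1 RPKM needed for testing only through its wild-type libraries. Cyp26a1 and Cyp26c1, the retinoic acid hydroxylases of this stretch, were near 0, at means of 0.015 and 0.0221 RPKM in null and 0.00774 and 0.00444 RPKM in wild-type islets. Ide, the insulin-degrading enzyme gene near Hhex on its other side, averaged 60.8 ± 3.77 RPKM in null and 67.3 ± 2.51 RPKM in wild-type islets (SD, n = 3 each; log2 difference -0.15, limma adjusted p = 0.60). Kif11, a mitotic kinesin gene next to Hhex, averaged 6.45 ± 0.12 RPKM in null and 7.05 ± 0.42 RPKM in wild-type islets (SD, n = 3 each; log2 difference -0.11, limma adjusted p = 0.64). Neither Ide nor Kif11 overlapped between groups, with the null libraries lower, an order found in 13.2% of all tested genes. These neighbours were chosen after the values were seen.

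Other genes known from delta cells overlapped between groups where they could be tested. Of a list of 11, 5 were tested, with 2 positive and 3 negative differences and 0 calls by limma or limma-voom. The groups overlapped in all 5, and the median difference was -0.03, equal to that of all tested genes. At an unadjusted limma p under 0.05 there was 1, Pcp4, lower in null islets, against 7.9% of all tested genes lower. Pyy, a peptide hormone gene also expressed by other islet cells, averaged 797 ± 305 RPKM in null and 909 ± 56.5 RPKM in wild-type islets (SD, n = 3 each). Pcp4, a calmodulin-binding protein gene, had 8.92, 8.78 and 10.3 RPKM in null islets, against 9.98, 18.4 and 18.1 RPKM in wild-type islets (log2 difference -0.63, SE 0.21, limma adjusted p = 0.49). Of the 6 untested genes, Bche, at 0.389, 0.304 and 0.186 RPKM in null islets against 0.700, 0.669 and 0.417 RPKM in wild-type islets, was one of a pair without overlap, the other being Crhr2. They were singled out after their values were seen, and null libraries lay entirely below wild-type libraries in 9.26% of genes averaging 0.25 to 0.5 RPKM.

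Partners of the receptors and carriers were described through lists. Of 21 genes of retinol transport and retinoid metabolism, the setting of Rbp4, 11 were tested, 4 with positive and 7 with negative differences and a median of -0.03. Limma and limma-voom made 0 calls among them, and at an unadjusted limma p under 0.05 there were 2 lower and 1 higher, against 7.9% and 1.46% of all tested genes. Ttr, transthyretin, which carries Rbp4 in blood, averaged 464 ± 52.6 RPKM in null and 419 ± 61.2 RPKM in wild-type islets (SD, n = 3 each). Rxrb, a retinoid X receptor gene, averaged 8.07 ± 1.01 RPKM in null and 8.25 ± 0.26 RPKM in wild-type islets, and Rdh11, a retinol dehydrogenase gene, 4.47 ± 0.28 RPKM in null and 4.52 ± 0.45 RPKM in wild-type islets (SD, n = 3 each). Null libraries lay entirely below wild-type libraries for 3 of the 11, Rarg, Rarb and Dhrs3, against 13.2% of all tested genes, and entirely above for 1, Aldh1a3, against 1.9%. These 4 were named after their values were seen. Dhrs3, a retinaldehyde reductase gene, averaged 3.42 ± 0.82 RPKM in null and 5.13 ± 0.8 RPKM in wild-type islets, and Aldh1a3, a retinaldehyde dehydrogenase gene, 3.73 ± 2.08 RPKM in null and 1.38 ± 0.11 RPKM in wild-type islets (SD, n = 3 each; limma adjusted p = 0.49 for both). The null libraries of Aldh1a3 had 1.47, 4.18 and 5.55 RPKM, and the lowest was close to the highest wild-type library, at 1.45 RPKM. Among the 10 untested genes, null libraries lay entirely below wild-type libraries for Aldh1a2 and Lrat and entirely above for Crabp1, also named after their values were seen. Aldh1a2 spanned 0.19 to 0.435 RPKM in null and 0.597 to 0.831 RPKM in wild-type islets. Among genes averaging 0.5 to 1 RPKM, 10.8% had that order. Lrat and Crabp1 averaged 0.0508 and 0.0168 RPKM.

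Of 8 genes of the ghrelin and leptin axis, which include Ghsr and Lepr, 4 were tested, with 2 positive and 2 negative differences, overlap in all 4 and 0 unadjusted limma p under 0.05. Stat3, which carries the leptin receptor signal, averaged 17.6 ± 1.88 RPKM in null and 16.3 ± 1.57 RPKM in wild-type islets, Socs3, its feedback inhibitor, 15 ± 5.46 RPKM in null and 13.7 ± 5.9 RPKM in wild-type islets, and Jak2, the receptor's kinase, 4.55 ± 0.26 RPKM in null and 4.87 ± 0.41 RPKM in wild-type islets (SD, n = 3 each). Of 4 ligands and partners of Ptprz1, Cntn1, a neural adhesion protein gene, was the one tested, at 8.42 ± 0.57 RPKM in null and 9.14 ± 0.44 RPKM in wild-type islets (SD, n = 3 each). Of the somatostatin receptors and cortistatin, only Sstr3 averaged over 1 RPKM, with 24.6 ± 0.69 RPKM in null and 23.2 ± 3.01 RPKM in wild-type islets (SD, n = 3 each). Among untested genes of these 3 lists outside the set, null libraries lay entirely below wild-type libraries for Sstr1, Mrap2 and Mdk, named after their values were seen. Sstr1, a somatostatin receptor gene, spanned 0.0843 to 0.139 RPKM in null and 0.211 to 0.374 RPKM in wild-type islets, Mrap2, a receptor accessory protein gene, 0.2 to 0.289 RPKM in null and 0.33 to 0.376 RPKM in wild-type islets, and Mdk, the midkine gene, 0.58 to 0.763 RPKM in null and 0.784 to 1.16 RPKM in wild-type islets. The share of all genes with that order was 8.42% at 0.1 to 0.25 RPKM, 9.26% at 0.25 to 0.5 RPKM and 10.8% at 0.5 to 1 RPKM.

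The profiles closest to that of Sst were sought among 7388 genes averaging at least 5 RPKM, by the root mean square difference between centred log2(RPKM + 1) profiles over the 6 libraries. The 5 closest genes outside the set were Nespas (0.32), an antisense transcript of the Gnas locus, Arg1 (0.35), which encodes arginase, Tspan8 (0.36), a tetraspanin gene, S100a6 (0.39), a calcium-binding protein gene, and Pcp4 (0.40). Within the set, only Rbp4, Hhex, Frzb and Casr also averaged at least 5 RPKM, and the other members were not compared. Rbp4 was closer to Sst than any of the 5 genes above, at 0.29. Hhex was at 0.39, while Frzb and Casr were at 0.69 and 0.80. Arg1 had 8.12, 6.81 and 8.74 RPKM in null islets, against 11.6, 14.8 and 14.9 RPKM in wild-type islets. S100a6 had 5.69, 4.11 and 4.70 RPKM in null islets, against 8.83, 11.6 and 8.62 RPKM in wild-type islets. These genes were picked for their likeness to Sst, so that their separation follows from the choice and is given as a description. The groups overlapped for Pcp4. The reads of Nespas cannot be told from those of the overlapping Gnas transcripts, since use of strand is not stated.

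Markers of other cells differed between the same libraries. Of 20 markers of acinar cells, the enzyme-secreting exocrine cells, 19 were tested, and all 19 differences were positive, with a median of 2.49. Limma made 0 calls among the 19 and limma-voom 0 among 18. An unadjusted limma p under 0.05 was found for 18 of the 19, against 1.46% of all tested genes higher in null islets. Every null library lay above every wild-type library for 3 of the 19, against 1.9% of all tested genes. Rbpjl, 1 of these 3, reached the mean of 1 RPKM needed for testing only through its null libraries. The summed level of the acinar markers was 6262 to 31493 RPKM in null libraries and 688 to 8482 RPKM in wild-type libraries, so the groups overlapped in this sum. Ucn3 null replicate 1 had the highest acinar sum. Of the 3 null libraries it was the lowest for Sst, Rbp4, O3far1, Casr, Frzb and Ptprz1, the highest for Hhex, Spock3 and Lepr, and between the others for Ghsr. Amy2a5, the most abundant of them, can share reads with near-identical copies, and its level is uncertain. Of 11 ductal markers, 10 were tested, all 10 with negative differences, 5 of them at an unadjusted limma p under 0.05 (7.9% of all tested genes) and 4 without overlap (13.2% of all tested genes), and a median of -0.43. Sox9, 1 of those 5, and Onecut1 averaged 0.709 and 0.68 RPKM in null islets. Both reached the mean of 1 RPKM needed for testing only through their wild-type libraries. Ductal markers summed to 242 to 299 RPKM in null and 296 to 393 RPKM in wild-type libraries. Of 9 tested macrophage markers 8 had negative differences, with a median of -0.21, and the listed markers summed to 49.7 to 68.5 RPKM in null and 57.7 to 87.9 RPKM in wild-type libraries.

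The sums of beta, alpha and endothelial markers overlapped as well. Beta cell markers summed to 230716 to 255274 RPKM in null and 247300 to 285957 RPKM in wild-type libraries, alpha cell markers to 6612 to 10827 RPKM in null and 8477 to 9487 RPKM in wild-type libraries, and endothelial markers to 75.0 to 83.3 RPKM in null and 73.4 to 83.4 RPKM in wild-type libraries. The PP cell hormone Ppy ranged from 1624 to 5133 RPKM in null and from 2994 to 4166 RPKM in wild-type libraries. Ins2 made up most of the beta sum and Gcg most of the alpha sum. Of the 9 beta cell markers, 1 had every null library above every wild-type library, against 1.9% of all tested genes. This was Nkx6-1, at 63.6 to 75.1 RPKM in null and 56.0 to 61.4 RPKM in wild-type libraries, named after its values were seen. The groups overlapped for the other beta and all alpha cell markers. No marker in these lists was at 0 in all libraries. With the mean of the acinar markers entered as a covariate, the log2 difference was -0.93 for Sst, -0.85 for Hhex, -0.83 for Spock3, -0.66 for Rbp4, -0.24 for O3far1 and 0.31 for Casr, with limma adjusted p of 0.91 to 0.98. Without the covariate these differences were -1.31, -0.83, -0.75, -0.78, -0.31 and 0.24, in the same order. The acinar markers themselves differed between the groups (median 2.49), so with 6 libraries this fit cannot fully separate acinar level from genotype. The part of ductal and macrophage transcripts in these results was not tested.

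**Figure D4:**
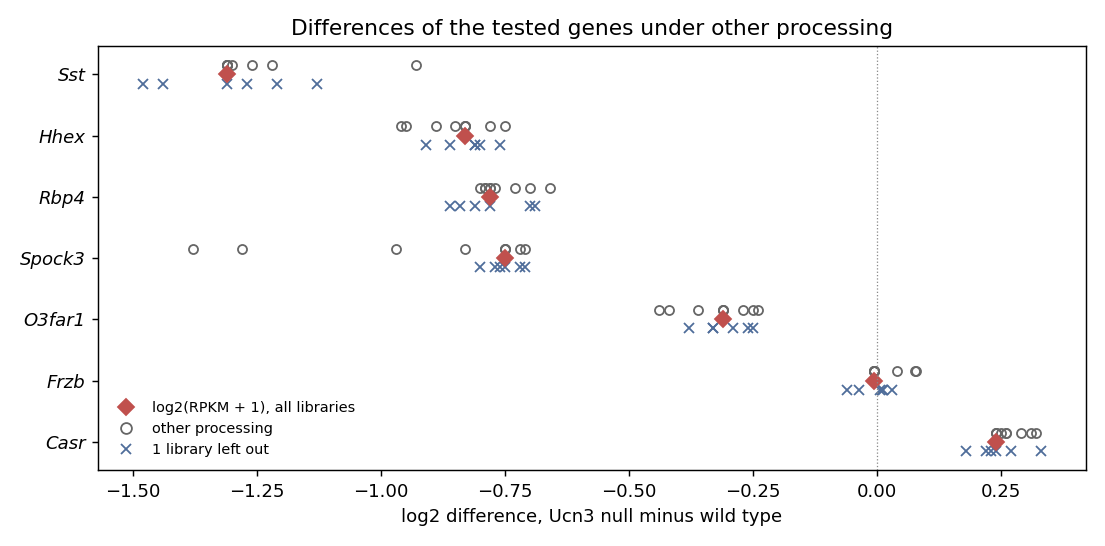
Log2 difference, Ucn3 null minus wild type, of the 7 tested delta cell genes as reported (diamonds), under 9 other ways of processing (open circles) and with 1 library left out at a time (crosses). Every value of Sst, Hhex, Rbp4, Spock3 and O3far1 lies left of 0 and every value of Casr right of it, while Frzb lies on both sides.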

How the data were processed

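RNA of isolated islets from 3 Ucn3 null and 3 wild-type animals was sequenced; per the labels' protocols, libraries were made with the TruSeq RNA kit. The authors deposited RPKM values, 1 row per RefSeq transcript, per the file headers. STAR, bedtools, DESeq and the build mm9 appear, with no role, in the submitters' processing notes. How shared reads were counted and whether strand was used are not given in the sources used here. No label gives a batch or ties a null to a wild-type littermate.

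Of 28129 rows, 118 without usable values were left out. Genes averaging at least 1 RPKM were tested as log2(RPKM + 1) with limma 3.58.1 in R 4.3.3 (eBayes with a mean trend, Benjamini-Hochberg adjustment); the fit was tested on simulated data. Ratios to Sst are given as descriptions, without the planned permutation test, since Sst itself separates the groups. Each library is 1 animal. Depth was recovered from low RPKM values and GENCODE M21 transcript lengths, matched for 97.5% of rows. In each library 71.4% to 72.9% of the low values lay within 0.1 of a whole read, so read numbers are estimates. Promoter windows and neighbours came from RefSeq tables, which held all 10 genes. All 10 members were named, with Ucn3, up to 3 genes per list by mean RPKM, and the 5 closest to Sst. The value of 1 listed gene is not reported here. Members, lists and tests were chosen with earlier results of these data known. Figures were drawn with matplotlib 3.10.9. The alternatives changed the pseudocount, filter, trend, scaling, covariate, transcript choice or test, or left out 1 library.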

Additional observations from a re-analysis of the deposited data

How the results depend on the processing

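No paired analysis was possible because the labels give the genotypes no shared replicate numbers and tie no null animal to a wild-type one. The count of genes past the limma threshold was 2 with all libraries, 4 without the filter on low values, 1 with the acinar covariate, 1 with limma-voom on estimated reads, and 1 to 5 with 1 library left out. It was 5 without Ucn3 null replicate 1, when Hhex passed (adjusted p = 0.041), and 1 without Ucn3 null replicate 2. Of 105 alternative values of the 7 tested delta cell genes, 97 kept their direction and their side of the threshold. The others were Hhex as above and 7 changes of sign of Frzb, to 0.041 with median-ratio factors, 0.076 with equal totals outside the acinar markers, 0.079 with the acinar covariate, and to between 0.007 and 0.031 with 1 of 4 libraries left out; over all 6 such fits it ranged from -0.061 to 0.031. Of 72 alternative values relative to Sst, 69 kept their sign, although with 1 RPKM added to both genes Ptprz1 moved to 0.85 and Ghsr to 0.99. The exceptions in sign were Spock3, at 0.55 with 1 RPKM added to both genes and between -0.37 and 0.20 with 1 library left out. The causes were not tested. Without 1 library in turn, chosen after seeing the data, 6 to 7 of the 10 genes had a wild-type mean at least 1.5 times the null mean. Genes near 1 RPKM rest on 71 to 485 reads per library, and 3 animals per group limit the precision of all values.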
